A study of Rattus norvegicus with 3 samples.

Results

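The genes described here are 32 genes of cholesterol and fatty acid synthesis and of their control by the sterol regulatory element-binding proteins (SREBPs), measured in rat kidney tubules. They were selected on their signals, because they varied together between the arrays, so differences between arrays are described here and not tested. A gene was represented by the probe set, a group of short probes for one transcript, with the highest mean log2 signal among those annotated with that symbol alone. Of the 32 genes, 31 were measured, out of 14217 genes on the array, and Hmgcs1 is not analysed here. The tissue was the medullary thick ascending limb (mTAL), the water-tight, salt-reabsorbing tubule segment of the outer medulla, from male Sprague-Dawley rats aged 7 to 8 weeks. At 30 min before death all rats had received 250 u heparin together with furosemide, a loop diuretic, at 1 mg, and tubules were freed with collagenase and hyaluronidase and separated in 33.3% Percoll. The 3 samples, replicates 1, 2 and 3, form 1 group with no comparison tissue, and whether each came from 1 rat or from a pool is not given in the labels, so each p-value reflects only how far these samples spread, and that spread may be technical.

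Cells make cholesterol from acetyl-CoA through mevalonate, the isoprenoid diphosphates, squalene and lanosterol. The membrane-bound factors encoded by Srebf1 and Srebf2 are escorted by Scap from the endoplasmic reticulum to the Golgi, cut there, and then enter the nucleus to raise transcription of this pathway, of fatty acid synthesis and of Insig1. When sterols are plentiful, the Insig proteins hold Scap back. In kidney tubules, as in other epithelia, cholesterol is a main component of the plasma membrane.

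The arrays carried the signature of the segment. Umod, the gene of uromodulin, had signals of 57572, 64784 and 48750 on replicates 1, 2 and 3, and Slc12a1, the furosemide-sensitive cotransporter, had 42344, 37545 and 38391. All 14 thick limb markers were detected. Markers of other segments differed between the arrays. The summed signal of 23 proximal tubule markers was 15300, 58777 and 112654, and 3, 10 and 16 of the 23 lay above the detection cutoff. Slc34a1 had 91.9, 752 and 4684, Lrp2 323, 905 and 2544, and Cubn 263, 603 and 841. All measured thin limb markers (7) and all measured intercalated cell markers (5) were lowest on replicate 1.

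Transcripts of most of the pathway were detected in the mTAL samples. A gene was called detected when its log2 signal exceeded, over the 3 arrays, a cutoff set array by array at percentile 95 of 61 genes of other tissues (signals of 643, 643 and 659; limma, one-sided, adjusted p below 0.05 over all genes). By this rule 24 of the 31 measured genes were detected, against 44.5% of all genes. The count was 14 of 17 cholesterol enzymes, 5 of 5 genes of SREBP control, 1 of 3 genes of sterol transport and storage, and 4 of 6 genes of fatty acid synthesis. By the same rule, 6 of 10 endothelial, 5 of 7 thin limb, 4 of 10 principal cell and 3 of 23 proximal tubule markers were detected. The part of such cells in the signals of the set was not tested. The 31 genes had a median log2 signal 1.53 ± 0.08 above that of all genes (SD, n = 3), and the 6320 detected genes one 1.88 ± 0.06 above it. Signals of different genes come from different probes, so their order is not one of transcript amounts. A stricter cutoff, at percentile 99, left 14 of the 31 genes detected (45.2%), beside 25.5% of all genes. With plain probe sets (names of digits and _at only) preferred to the brightest, 21 of the 31 were detected, beside 6234 of all 14217 genes. The calls lost were those of Cyp51 (0.53 log2 units above the cutoff, limma adjusted p = 0.088), Fasn (0.35, adjusted p = 0.0897) and Soat1 (0.22, adjusted p = 0.556).

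**Figure D1:**
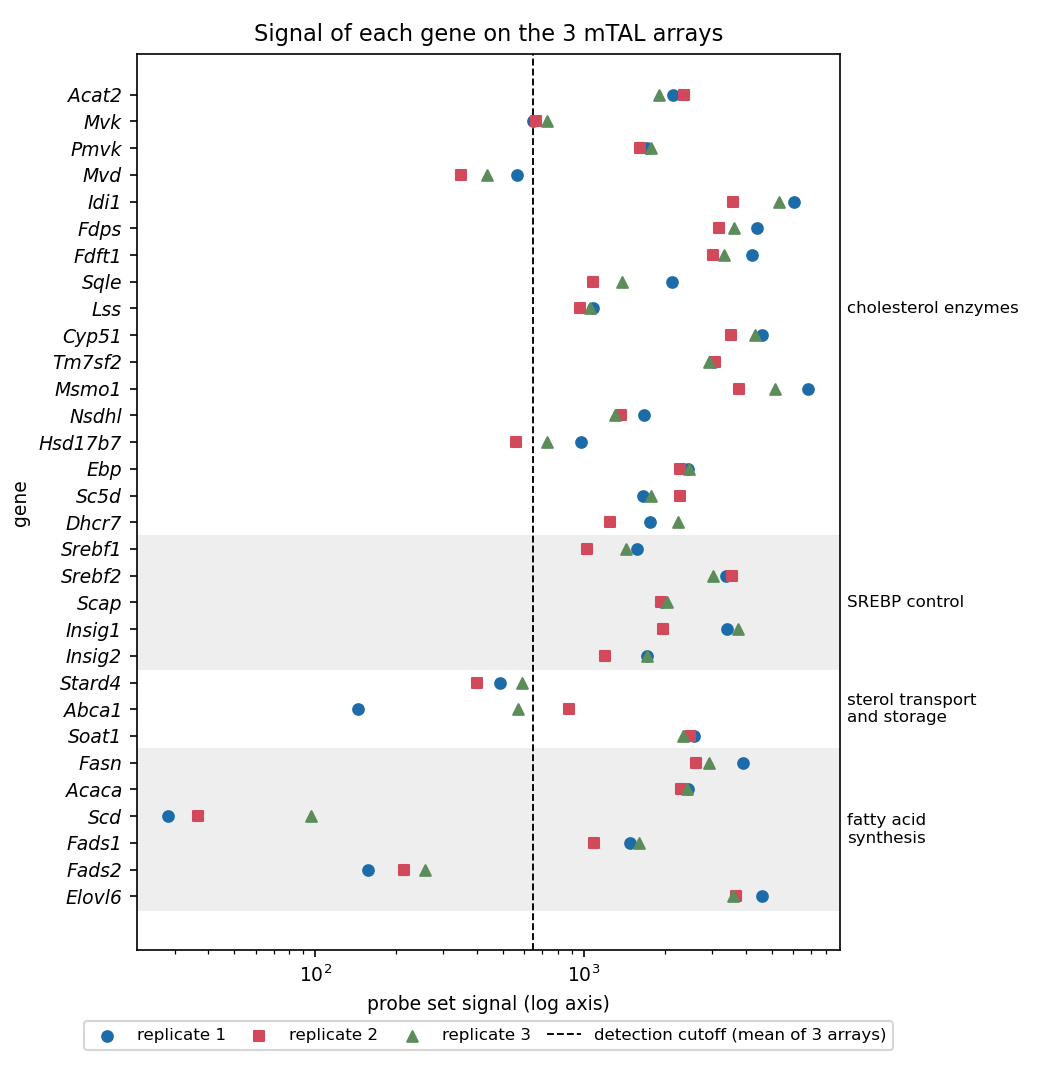
Probe set signal on a log axis (x) for each of the 31 measured genes (y, ordered by role), with 1 point per replicate and the detection cutoff as a dashed line. Most genes lie right of the cutoff, Mvd, Stard4, Scd and Fads2 lie left of it on all arrays, and the points of replicate 2 are often leftmost.

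Of the measured genes of the first steps, from acetyl-CoA to isopentenyl diphosphate, Acat2 and Pmvk were detected, and Mvk and Mvd were not. Acat2, the cytosolic thiolase that joins acetyl-CoA units, had 2150, 2359 and 1902 on replicates 1, 2 and 3 (1.72 log2 units above the cutoff, limma adjusted p = 0.000682). Pmvk, phosphomevalonate kinase, had 1718, 1624 and 1776 (1.40, adjusted p = 0.000601). Mvk, mevalonate kinase, lay at the cutoff with 649, 661 and 730, and was not called detected (0.07, adjusted p = 0.526). Mvd, the decarboxylase that makes isopentenyl diphosphate, was below the cutoff on every array, with 565, 350 and 435 (-0.55, adjusted p = 1).

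All genes that carry isopentenyl units to squalene and lanosterol were detected. Idi1, isopentenyl diphosphate isomerase, had 6062, 3592 and 5347, 2.91 log2 units above the cutoff (limma adjusted p = 0.000636). Fdps, farnesyl diphosphate synthase, had 4395, 3188 and 3626, and Fdft1, squalene synthase, had 4210, 3024 and 3325. In these 3 genes, replicate 1 was highest and replicate 2 lowest. Sqle, squalene epoxidase, a rate-controlling enzyme of the later pathway, had 2124, 1079 and 1389 (1.18 above the cutoff, adjusted p = 0.0139). Its call was lost without replicate 3 (1.24, adjusted p = 0.0596) and held without replicate 1 (0.0249) or replicate 2 (0.0252). Lss, which closes the ring to lanosterol, had 1084, 970 and 1056 and was the detected enzyme with the lowest mean (0.68, adjusted p = 0.00493).

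The enzymes that turn lanosterol into cholesterol were detected except for Hsd17b7. Msmo1, methylsterol oxidase, had the highest mean signal of all 31 genes, 5251 ± 1530, with 6832, 3778 and 5142 on replicates 1, 2 and 3. Cyp51, lanosterol demethylase, had 4587, 3516 and 4331, and Dhcr7, the reductase that makes cholesterol from its immediate precursor, had 1758, 1252 and 2245. Tm7sf2, a sterol reductase, had 3053, 3066 and 2923, and Ebp, a sterol isomerase, had 2443, 2282 and 2469, so that both varied little. Nsdhl, a sterol dehydrogenase, had 1676, 1369 and 1310. The desaturase Sc5d had 1664, 2286 and 1779 and was highest on replicate 2. Hsd17b7, a keto-sterol reductase, had 974, 557 and 732 and was not called (0.18, adjusted p = 0.433).

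All genes of SREBP control were detected. With the mean of all probe sets of each gene in place of the brightest, Scap (0.22, adjusted p = 0.432) and Srebf2 (-0.87, adjusted p = 1) were not. Srebf2, the gene of the factor that mainly serves cholesterol synthesis, had 3392, 3572 and 3034, and the escort Scap had 1960, 1930 and 2037. These differed little between arrays. Srebf1, the gene of the factor that mainly serves fatty acid synthesis, had 1583, 1025 and 1438. Insig1, itself an SREBP target, had 3404, 1968 and 3759, and Insig2 had 1715, 1198 and 1721. In these probe sets, replicate 2 lay below the others. The limma adjusted p for detection ran over the 5 genes up to 0.00763 for Srebf1, the one nearest the cutoff (1.03).

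Fatty acid synthesis was represented by the carboxylase, the synthase, an elongase and a desaturase, while Scd and Fads2 were not detected. Fasn, fatty acid synthase, had 3898, 2622 and 2912, and Acaca, acetyl-CoA carboxylase, had 2444, 2293 and 2423. Elovl6, which lengthens saturated chains, had 4606, 3696 and 3601, and Fads1, a desaturase of polyunsaturated chains, had 1488, 1092 and 1598. Fads2 had 157, 214 and 256. Scd, a stearoyl-CoA desaturase, had 28.4, 36.6 and 96.1, 3.80 log2 units below the cutoff (log2 signal minus cutoff -3.80), whereas Scd2, another gene of that family and not one of the 32, had 7989, 4543 and 6375 (3.24 above it, adjusted p = 0.000539). Of 5 measured adipocyte markers 0 lay above the cutoff on any array, and their summed signal was 317, 310 and 304 (limma, 0 detected and 0 with an unadjusted p under 0.05).

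Of the genes that move and store sterol, Soat1 was detected, though not with plain probe sets (0.22, limma adjusted p = 0.556). Soat1, which esterifies cholesterol for storage, had 2568, 2492 and 2343. Stard4, a sterol carrier, had 487, 400 and 587, below the cutoff on all arrays. Abca1, the pump that exports cholesterol from cells, ran opposite to the enzymes, with 144, 883 and 568. Its 3 further probe sets had the same order, for example 101, 260 and 152, and none had a mean above the cutoff. The markers of the thin limb (summed signal 31745, 78591 and 54730) and of endothelium (16099, 27702 and 24859) were likewise lowest on replicate 1 and highest on replicate 2, and their part in the Abca1 signal was not tested.

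Replicate 2 had the lowest signal in 20 of the 31 genes, and replicate 1 the highest in 15. Both held together in 12 genes, and in 9 of the 17 enzymes. Among all genes, replicate 2 was lowest in 35.5%, and replicate 1 was highest with replicate 2 lowest in 18.4%. Of the 24 detected genes of the set, 17 were lowest on replicate 2 (40.9% of all detected genes), 10 had both (21.9%), and 20 were higher on replicate 1 than on replicate 2 (57.3%). Since the genes were listed for this variation, nothing is read from these shares. The signal on replicate 1 was at least 1.5-fold that on replicate 2 in Sqle (1.97-fold), Msmo1 (1.81), Hsd17b7 (1.75), Insig1 (1.73), Idi1 (1.69), Mvd (1.62) and Srebf1 (1.55), 7 of the 31 genes, beside 11.8% of all genes. Among detected genes these were 5 of 24, beside 1.79%. Fasn, at 1.49, lay just outside. It was close to equal in Tm7sf2 (1.00), Scap (1.02), Soat1 (1.03), Pmvk (1.06), Ebp (1.07) and Acaca (1.07). A difference between single arrays has no replicate test.

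After the median gene of every array had been set to 0, the enzymes deviated by a median of 0.34, -0.34 and -0.08 log2 units on replicates 1, 2 and 3, each array being compared with the others' mean. The genes of SREBP control deviated by 0.36, -0.55 and 0.10, those of fatty acid synthesis by 0.22, -0.28 and 0.11, and those of sterol transport and storage by 0.11, -0.01 and 0.34. The same medians were 0.14, -0.06 and -0.06 over all detected genes, and 0.12, -0.04 and -0.05 over all genes. Except for SREBP control, the medians by role include genes that were not detected. Over the 14 detected enzymes alone, the medians were 0.27, -0.25 and -0.09. On replicate 1, 16 of the 17 enzymes exceeded the others' mean, beside 4694 of the 6320 detected genes and 8870 of all 14217 genes. On replicate 2, 3 of the 17 enzymes exceeded it, beside 2437 of the detected genes and 6508 of all genes. The largest deviations of detected genes on replicate 2 were those of Insig1 (-0.89), Sqle (-0.70), Dhcr7 (-0.70), Idi1 (-0.69) and Msmo1 (-0.68). The enzyme value depended on replicate 1. Without it, replicate 2 minus replicate 3 had a median of -0.12 in the enzymes, but of -0.46 in the genes of SREBP control. The median of SREBP control rested on the probe set chosen, and with the mean of all probe sets of each gene it was -0.21 on replicate 2. The reference also mattered: with arrays centred on the median signal of the 14 thick limb markers, replicate 2 deviated by -0.04 in the enzymes, -0.25 in SREBP control and 0.02 in fatty acid synthesis, and replicate 1 by 0.00, 0.02 and -0.12. With arrays centred on the median change of those markers, replicate 2 deviated by -0.28, -0.49 and -0.22 and replicate 1 by 0.15, 0.17 and 0.02.

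**Figure D2:**
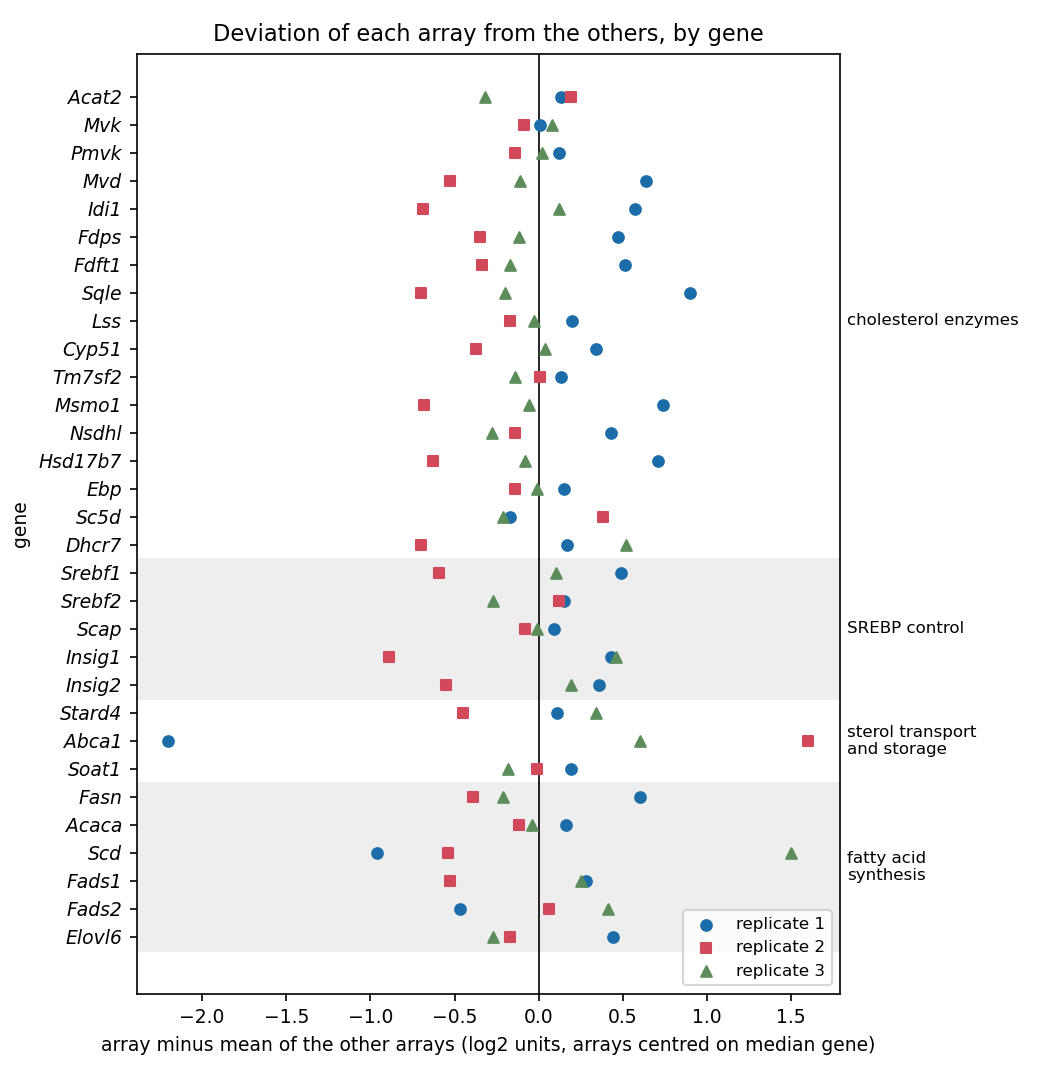
Log2 signal of each array minus the mean of the other arrays (x) for each gene (y, ordered by role), with arrays centred on their median gene and 1 point per replicate. Replicate 2 lies left of 0 for most enzymes and for Srebf1, Insig1 and Insig2, while Abca1 lies at 1.60 on replicate 2 and -2.20 on replicate 1.

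The spread over the 3 arrays differed from gene to gene. The SD in log2 units was smallest in Tm7sf2 and Scap (0.04 each) and Acaca (0.05). Among the detected genes it was largest in Insig1 (0.50), Sqle (0.49), Msmo1 (0.43), Dhcr7 (0.42) and Idi1 (0.39). Among those not detected it ran from 0.09 in Mvk to 1.37 in Abca1, with 0.93 in Scd and 0.40 in Hsd17b7. The median SD was 0.22 over the 24 detected genes of the set and 0.14 over all detected genes. With genes not detected included, it was 0.25 over the 31 genes and 0.25 over all genes. These values are a description, since variation chose the genes.

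Further probe sets existed for 18 of the 31 genes. Of 23 such probe sets, 15 had the same sign of replicate 1 minus replicate 2 as the brightest one. A mean above the cutoff was found in 11 of the 23, and 8 of these 11 had the same sign. For comparison, 57.3% of all detected genes were higher on replicate 1 than on replicate 2. The further probe sets were read from the same samples and add no replicate. The second probe set of Idi1 had 1604, 839 and 1228 (1.91-fold for replicate 1 over replicate 2), and that of Cyp51 had 1142, 654 and 1098 (1.74-fold). Those of Fasn, with 980, 700 and 813, and of Nsdhl, with 767, 496 and 785, were also lowest on replicate 2, as in 5 of the 11. The other 6 were lowest on replicate 3. Among these, Fdft1 had 2123, 1823 and 1615, Elovl6 2816, 2168 and 1988, Insig2 1120, 951 and 594, Soat1 906, 1057 and 445, and Sc5d 1177, 1124 and 901. The last of them, the second probe set of Srebf1, had 800, 754 and 588, a ratio of 1.06, so the larger difference was seen with 1 of its 2 probe sets. For Sc5d the brightest probe set was highest on replicate 2, but another of nearly equal signal had 2006, 1702 and 1761.

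Other genes of sterol and lipid metabolism were detected in 22 of 32 cases, against 44.5% of all genes. The highest signals were those of Acat1, the mitochondrial thiolase (24498 ± 1501), Npc2, the lysosomal sterol carrier (9292 ± 501), Erlin2, which takes part in degradation at the endoplasmic reticulum (6982 ± 337), and Acss2, which activates acetate (6741 ± 1040). The lowest were Gpam, an acyltransferase (200 ± 51.5, log2 signal minus cutoff -1.73), and Scarb1, the lipoprotein receptor (295 ± 99.6, -1.19). Among the detected genes, Scd2, Mylip, Rnf139 and Acss2 had the largest range over the arrays. Mylip, a ubiquitin ligase that lowers lipoprotein receptors, had 1362, 910 and 1109, and Rnf139, another ubiquitin ligase, had 3491, 2574 and 3823, and in both replicate 2 was lowest. The deviation over the 32 genes was 0.18, -0.03 and -0.01 on replicates 1, 2 and 3. Scd2 differed 1.76-fold between replicates 1 and 2, and 1 of the 32 genes passed 1.5-fold in that direction and 4 in the other (Scarb1, and Me1, Mlxipl and Ch25h, which were chosen for naming after their values were seen).

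Several other gene lists also differed between the arrays. The 14 genes of fatty acid oxidation deviated by 0.24, -0.20 and -0.04 on replicates 1, 2 and 3, with replicate 2 lowest in 10 of 14, and thus had the same order of arrays as the enzymes. Their median ratio of replicate 1 to replicate 2 was 1.13, beside 1.30 in the enzymes and 1.43 in SREBP control, and these differences were not tested. Thick limb markers deviated by 0.20, -0.05 and -0.12. Early response and heat shock genes deviated by -0.50, -0.10 and 0.59, proximal tubule markers by -2.91, 0.33 and 2.49, principal cell markers by -1.29, 0.09 and 1.18, thin limb markers by -1.04, 1.17 and -0.13, and endothelial markers by -0.88, 0.58 and 0.33. The summed signal of 10 principal cell markers was 12113, 17334 and 27107, with 4, 6 and 7 above the cutoff, and Aqp2 had 1433, 3695 and 7803, Aqp3 403, 927 and 2061, and Aqp4 245, 631 and 1294. Of 7 thin limb markers 5, 6 and 6 lay above it, led by Cryab (14366, 27336 and 17275) and Aqp1 (7795, 28878 and 15354), which is also a proximal tubule marker, with Slc14a2 at 1918, 6582 and 3386. The 5 intercalated cell markers summed to 1093, 2758 and 3032, with 0, 1 and 1 above the cutoff, and Atp6v1b1 had 174, 373 and 636, Slc4a1 206, 610 and 554, and Slc26a4 97.7, 122 and 138. Leukocyte markers (11) summed to 2581, 4559 and 3647, with 2, 2 and 1 above it, and fibroblast markers (10) to 2431, 4249 and 4811, with 1, 2 and 3 above it. No marker had a signal of 0. The part of cell makeup in the pattern was not tested, and in bulk RNA fewer cells of a type and less RNA per cell cannot be told apart. For Actb, the 3' control probe set exceeded the 5' one, a gap that widens with RNA degradation, by log2 values of 1.48, 1.18 and 1.95, and for Gapdh by 0.51, 0.43 and 0.60. Both were lowest on replicate 2, and their part was not tested either.

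**Figure D3:**
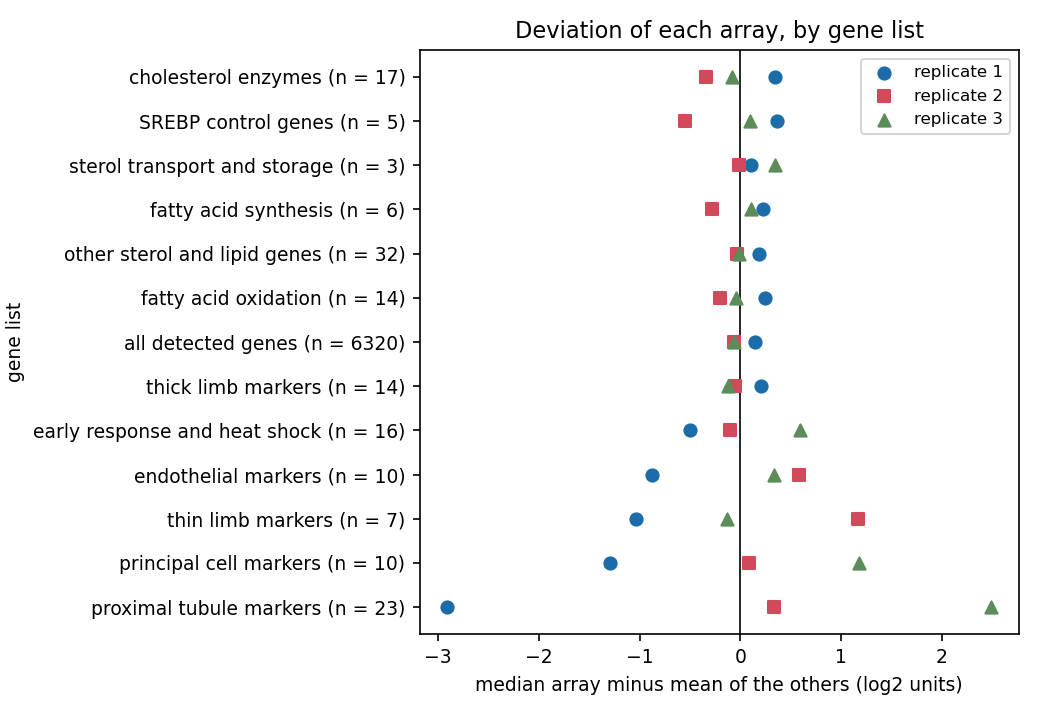
Median over the genes of each list of array minus mean of the other arrays in log2 units (x), for the 4 roles of the set, for other lists and for all detected genes (y, number of measured genes in brackets), with 1 point per replicate. The enzymes lie at -0.34 and SREBP control at -0.55 on replicate 2, and proximal tubule markers span -2.91 to 2.49.

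Promoter sequence was not among the signals on which the genes were selected. The list is nevertheless one of sterol synthesis and SREBP genes, so the motif shares below are not independent of how it was made. SREBPs activate many targets together with nuclear factor Y (NF-Y), which binds the CCAAT box, and with Sp1, which binds GC boxes. RefSeq windows of 250 bases before to 50 bases after a gene start (build GRCr8) were found for 24 of the 31 genes, 25 windows in all because Srebf1 has 2 starts. Pmvk, Fdft1, Sqle, Stard4, Fasn, Acaca and Elovl6 had none in the table. The windows are shown for the 6 genes that had one and differed at least 1.5-fold between replicates 1 and 2, as the 200 bases before the start on the gene strand, with CCAAT boxes of either strand in capitals (CCAAT, or ATTGG where the box is on the other strand). A further Mvd box, beginning at base -2, runs past the stretch shown and is not in capitals. They lie at chr17:66547525-66547724 (Idi1, minus strand), chr16:29746913-29747112 (Msmo1, plus), chr13:84722755-84722954 (Hsd17b7, minus), chr19:67414975-67415174 (Mvd, minus), chr4:8057770-8057969 (Insig1, minus), and chr10:45529165-45529364 and chr10:45519011-45519210 (Srebf1 upstream and downstream start, minus).
Idi1: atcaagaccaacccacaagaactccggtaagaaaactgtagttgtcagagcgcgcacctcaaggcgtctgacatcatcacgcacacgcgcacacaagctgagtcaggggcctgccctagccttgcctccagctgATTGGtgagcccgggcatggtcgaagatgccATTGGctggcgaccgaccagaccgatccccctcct
Msmo1: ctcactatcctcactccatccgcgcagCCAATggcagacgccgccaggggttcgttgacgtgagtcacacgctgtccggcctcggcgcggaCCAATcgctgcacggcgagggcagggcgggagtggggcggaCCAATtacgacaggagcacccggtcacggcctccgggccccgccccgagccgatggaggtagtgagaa
Hsd17b7: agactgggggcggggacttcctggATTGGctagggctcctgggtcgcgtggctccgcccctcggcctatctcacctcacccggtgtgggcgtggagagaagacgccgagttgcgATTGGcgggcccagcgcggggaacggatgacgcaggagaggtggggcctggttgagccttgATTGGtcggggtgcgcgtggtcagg
Mvd: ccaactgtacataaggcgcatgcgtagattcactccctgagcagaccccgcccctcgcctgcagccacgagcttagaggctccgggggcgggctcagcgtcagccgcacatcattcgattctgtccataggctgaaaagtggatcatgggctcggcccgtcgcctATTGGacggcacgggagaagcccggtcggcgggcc
Insig1: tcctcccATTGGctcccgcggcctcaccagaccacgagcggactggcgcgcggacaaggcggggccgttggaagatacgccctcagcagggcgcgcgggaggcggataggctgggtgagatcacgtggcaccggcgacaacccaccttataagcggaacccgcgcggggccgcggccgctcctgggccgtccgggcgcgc
Srebf1 upstream start: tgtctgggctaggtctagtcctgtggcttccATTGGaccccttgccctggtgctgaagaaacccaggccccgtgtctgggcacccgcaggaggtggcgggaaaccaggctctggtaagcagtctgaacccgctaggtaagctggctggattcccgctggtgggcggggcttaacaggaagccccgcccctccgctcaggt
Srebf1 downstream start: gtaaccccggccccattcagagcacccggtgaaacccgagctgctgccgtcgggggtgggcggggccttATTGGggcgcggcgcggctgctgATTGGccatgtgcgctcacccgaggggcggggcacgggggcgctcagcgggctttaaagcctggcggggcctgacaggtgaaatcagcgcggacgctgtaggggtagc

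A CCAAT box on either strand stood in 18 of the 25 windows, or 72.0%, beside 38.5% of 5834 windows of detected genes and 37.5% of all 33469 windows of the table. It stood in 17 of the 24 genes. On the gene strand alone it stood in 28.0% of the windows, beside 21.8% of those of detected genes. At least 2 boxes stood in 10 windows (40.0%), beside 14.4% of the windows of detected genes, and Mvk and Nsdhl had 5 each. Of the 36 boxes, 72.2% began between 150 and 31 bases before the start, beside 57.6% of the boxes of detected genes. The GC box GGGCGG stood in 84.0% of the windows and in 65.5% of those of detected genes. The median GC content was 63.7% in the windows of the set and 61.7% in those of detected genes. These shares are descriptions with no test.

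Exact copies of sterol elements were few. The core CACCCCAC was found in 1 window, that of Ebp, beside 2.40% of the windows of detected genes. The form TCACNCCAC fixes as many bases as the core and overlaps it when N is C. It was found in 0 of the 25 windows, beside 1.15%. The E box CACGTG, which SREBPs can also bind, stood in 4 windows, those of Insig1, Abca1, Sc5d and Scap (16%, beside 10.2%). The 6 genes whose windows are shown each had at least 1 CCAAT box, beside 17 of all 24 genes of the set with a window. Mvk, which was not called detected, had 5 boxes and a ratio of 0.98 between replicates 1 and 2. Its further probe sets, both below the cutoff, had ratios of 1.48 and 1.08. Dhcr7 and Cyp51, with 0 boxes, had ratios of 1.40 and 1.30. Mvk, Dhcr7 and Cyp51 were singled out here after their values were seen. Any relation of boxes to differences between arrays was not tested.

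**Figure D4:**
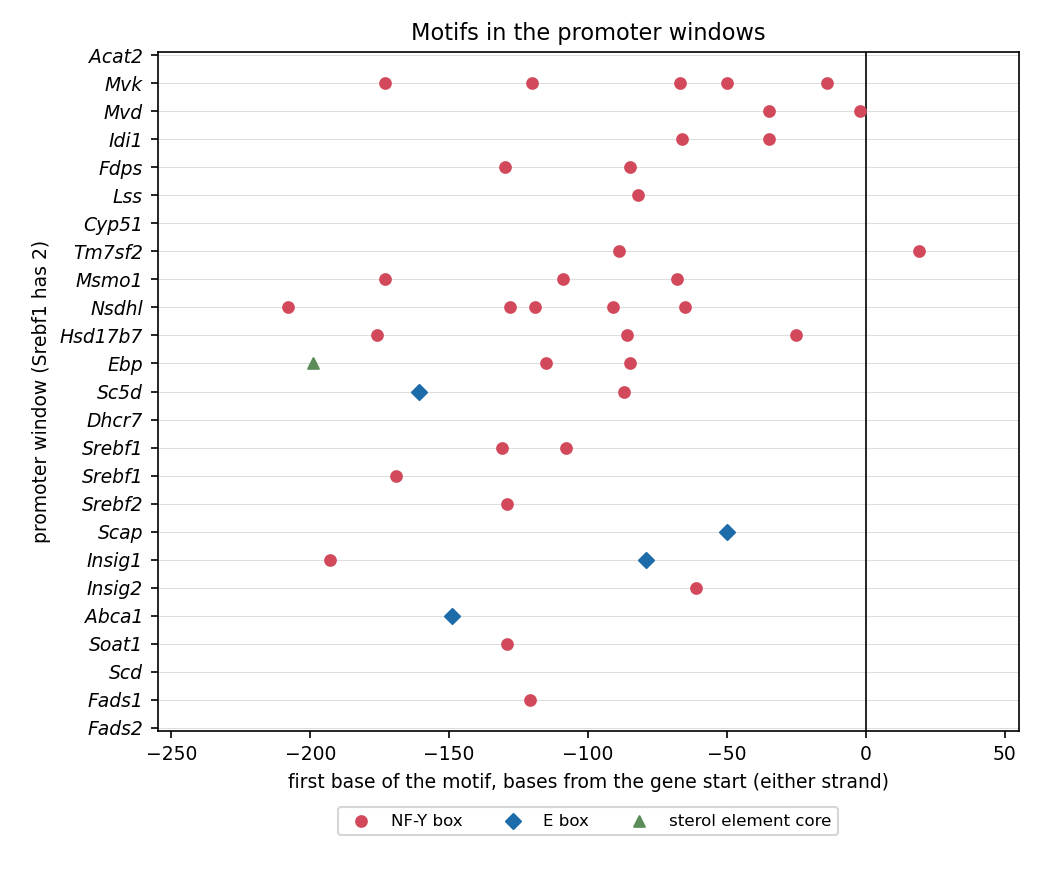
First base of each NF-Y (CCAAT) box, E box and sterol element core in the 25 promoter windows (y, in pathway order) by distance from the gene start in bases (x, either strand). NF-Y boxes stand in 18 windows, and the windows of Acat2, Cyp51, Dhcr7, Scap, Abca1, Scd and Fads2 hold none.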

How the data were processed

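Per the labels' protocols, cRNA of 3 mTAL samples carrying biotin was read on Affymetrix arrays. The authors deposited linear intensity values, 1 for each probe set of each array. How they were summarised and scaled is not given in the sources used here. A trimmed mean, with the lowest and highest 2% left out, was 1000.3 on each array, and all values were positive, so logs to base 2 needed no pseudocount, and no further scaling was done. Of 31099 probe sets, 20826 had 1 gene in the platform annotation, 436 several, 9780 none, and 57 were controls. The brightest probe set stood for each of 14217 genes. All 31 identifiers matched the RefSeq gene table of GRCr8.

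Detection was tested across all genes with limma 3.58.1 in R 4.3.3 (lmFit, eBayes, one-sided) on log2 signal minus the array's cutoff, with Benjamini-Hochberg adjustment at 0.05, and was checked on simulated data. Of 70 listed other-tissue genes 61 were measured, and the cutoff lay at Inhbb or Mbp. Deviations were computed with pandas 2.3.3. The genes, lists and tests were chosen with earlier results of these data known. All 31 genes are named, and of the other pathway genes the 4 highest, the 2 lowest and the 4 detected ones of largest range, together with the first 3 markers of each list whose sum differed over 2-fold. The further probe sets described, and Inhbb and Mbp, were singled out after their values were seen. Precision is limited by having 3 arrays. Alternatives covered scaling, pseudocount, low-value filter, probe set choice, cutoff and single replicates.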

Additional observations from a re-analysis of the deposited data

How the results depend on the processing

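The detection counts and medians below were recomputed with other scalings, pseudocounts, filters, probe set choices and cutoffs and without single replicates. With the cutoff at the 99th percentile, 14 genes of the set, 15 of the other pathway genes and 3623 of all genes were detected. Without single replicates, the counts were 23 to 24, 20 to 22 and 5821 to 5964. The level of the set was -0.15 against the 75th percentile, 0.11 after the filter on low values and 1.25 with plain probe sets (1.48 to 1.56 without single replicates). The first of these changes the point of reference, and the filter removes low genes. On replicate 2, the enzymes deviated by -0.47 to -0.12 and SREBP control by -0.61 to -0.46 without another replicate. With centring on the thick limb markers' median signal, added after seeing the data, the values were -0.04 for the enzymes, -0.25 for SREBP control and 0.02 for fatty acid synthesis. With their median change, SREBP control had -0.49, and with the mean of all probe sets -0.21. Sterol transport and storage had 0.71 with plain probe sets. The share of windows with a CCAAT box was 28.0% when 1 strand was searched, beside 21.8% for detected genes.

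Of 429 values of single genes 394 kept direction and call, 17 lost the call, 5 gained it and 19 turned direction (5 of these also lost the call and 1 gained it). With the mean of all probe sets, the log2 signal minus cutoff was -1.83 for Mvk, 0.06 for Mvd, -0.11 for Lss, -0.14 for Hsd17b7 and -0.87 for Srebf2. At the 99th percentile it was -1.05 for Mvk, -0.44 for Lss, -0.94 for Hsd17b7, -0.09 for Srebf1 and -0.04 for Fads1. At the 90th percentile it was 0.62 for Mvd, 0.76 for Stard4 and 0.53 for Abca1, and with Cela1 and Krt10 left out of the cutoff genes 0.27, 0.41 and 0.18. Without single replicates it was -0.03 (without replicate 1) to 0.38 for Hsd17b7 and -1.19 to 0.12 (without replicate 1) for Abca1, and with Myh1 added to the cutoff genes -0.09 for Mvk. Except for the constructions named, the cause was not tested. No paired analysis was possible because there is 1 group. A cutoff list without Myh1 was not run, since the list does not hold it, nor was a second cutoff list. With 3 arrays, an exact sign-flip test of both directions, unlike the one-sided limma tests here, cannot go below p = 0.25.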
